A study of Mus musculus with 9 samples.

Results

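Glycolysis below hexokinase was followed through 10 enzyme genes, chosen by name along the pathway: Gpi1, Pfkl, Pfkp, Aldoa, Tpi1, Pgk1, Pgam1, Eno1, Pkm and Ldha. All 10 had a row among the 28965 gene symbols of the deposited table, and all 10 were among the 15002 genes tested. RNA came from wild-type 3T3-L1 cells, mouse preadipocytes that had reached confluence and were then held 24 h in an adipogenic cocktail. Every group received that cocktail, with insulin at 0.1 µg/mL, isobutylmethylxanthine at 30 µg/mL and dexamethasone at 0.1 µg/mL. The OA_T0 group also had 100 µM oleic acid carried on albumin and 5 µM T0901317, a synthetic agonist of the liver X receptors. The OA group had the oleic acid on albumin, and the MDI group had the albumin vehicle. Each group held 3 poly(A)-selected, strand-specific libraries, and no group here received T0901317 without oleic acid. Nothing in the labels says whether replicates were separate cultures, so p-values may measure technical spread only, and all values describe 1 cell line.

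Glycolysis turns glucose 6-phosphate into pyruvate and yields ATP and NADH on the way. Gpi1 makes fructose 6-phosphate, and the phosphofructokinases add a second phosphate in the committed step. Aldoa splits the sugar, Tpi1 interconverts the products, Pgk1 makes ATP, Pgam1 moves a phosphate, Eno1 removes water, Pkm makes ATP and pyruvate, and Ldha reduces pyruvate to lactate. In fat cells the pathway feeds the glycerol backbone of triglycerides and the citrate used for fatty acid synthesis, and oxidation of fatty acids is known to spare glucose. Many genes of the pathway are known targets of the transcription factors HIF-1 and Myc.

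Values are the deposited units, counts that the authors scaled by library, so a unit is close to a fragment but not one. Estimated depth ran between 17.98 M fragments, in OA_T0 replicate 3, and 59.9 M, in MDI replicate 1, and all 10 enzymes lay far above the floor of 3 fragments, 1.35 to 4.62 units. OA_T0 replicate 3 and OA replicate 1 were low in ribosomal RNA, with 3.06% and 0.649% of their values in 1 such gene, against 4.40% to 5.96% elsewhere, and were also left out together as an alternative. All 9 preadipocyte or fibroblast markers averaged at least 10 units, among them Dlk1, with 33614 to 45824 units. Their summed level was 173690 to 200300 units in OA_T0, 204420 to 223330 in OA and 192730 to 204410 in MDI. The collagen genes Col3a1 and Col1a1 were the largest parts of that sum. Col3a1 had means of 58864 units in OA_T0, 77738 in OA and 74846 in MDI. Dlk1 went the other way, with means of 43502, 35777 and 37585 units in that order. Of 9 adipocyte markers, 4 averaged at least 10 units. The 9 summed to 10579 to 11401 units in OA_T0, 12329 to 13310.0 in OA and 6872 to 7537 in MDI. Lpl was the largest part, with means of 8651 units in OA_T0, 9358 in OA and 5424 in MDI. Fabp4 had means of 661, 2024 and 374 units in that order. Pparg went the other way between OA_T0 and OA, with means of 1185, 964 and 945 units. Adipoq, the adiponectin gene, stood at 0 to 6.76 units. The 6 leukocyte markers summed to 49.7 to 72.4 units in OA_T0, 24.2 to 46.2 in OA and 27.5 to 37.2 in MDI, and the 5 endothelial markers to at most 20.03 units in any library. The part of these marker levels in the results below was not tested, and in bulk RNA fewer cells of a type and less RNA per cell cannot be told apart.

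Several of these enzymes have near-identical copies elsewhere in the mouse genome, and reads may be split between an enzyme and its copies. Gpi1 is shown first, because it passed the test in OA_T0 vs OA, and because its copy Gpi-ps, on chromosome 8, has a row of its own. Coding bases 632 to 751 of Gpi1 and the matching stretch of the copy follow, with the 2 differing bases in capitals, out of 14 mismatches and 0 gaps over 1043 aligned bases (98.7% identity, GENCODE M21 transcripts).
Gpi1: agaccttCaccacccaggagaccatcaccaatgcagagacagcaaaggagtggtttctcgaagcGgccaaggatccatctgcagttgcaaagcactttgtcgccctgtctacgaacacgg
Gpi-ps: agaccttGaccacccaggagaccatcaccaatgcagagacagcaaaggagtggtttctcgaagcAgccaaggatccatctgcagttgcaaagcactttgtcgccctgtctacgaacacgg
Outside the capitals the stretches are the same, so a fragment that covers neither capital fits both genes.

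Promoter windows are shown for Gpi1 and for the isoenzyme pair Pfkl and Pfkp, whose fold changes had opposite signs both with oleic acid and with the agonist added. They run from 250 bases before to 50 bases after the start of the gene in the RefSeq table of build GRCm38.p6, minus strand, at chr7:34230287-34230586 for Gpi1, chr10:78009758-78010057 for Pfkl and chr13:6648722-6649021 for Pfkp. Capitals mark ACGTG or GCGTG, the letters of the HIF core, on either strand.
Gpi1: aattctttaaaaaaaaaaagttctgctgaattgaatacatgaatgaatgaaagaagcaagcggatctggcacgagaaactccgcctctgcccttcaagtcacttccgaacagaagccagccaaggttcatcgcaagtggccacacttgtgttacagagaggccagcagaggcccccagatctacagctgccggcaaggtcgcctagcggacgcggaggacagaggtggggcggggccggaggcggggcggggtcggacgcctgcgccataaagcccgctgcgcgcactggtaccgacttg
Pfkl: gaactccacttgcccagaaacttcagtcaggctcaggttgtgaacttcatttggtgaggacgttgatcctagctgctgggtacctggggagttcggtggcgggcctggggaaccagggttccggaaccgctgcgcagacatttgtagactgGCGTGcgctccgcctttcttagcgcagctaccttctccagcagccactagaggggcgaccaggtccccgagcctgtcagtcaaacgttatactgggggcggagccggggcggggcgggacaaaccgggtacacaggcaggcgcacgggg
Pfkp: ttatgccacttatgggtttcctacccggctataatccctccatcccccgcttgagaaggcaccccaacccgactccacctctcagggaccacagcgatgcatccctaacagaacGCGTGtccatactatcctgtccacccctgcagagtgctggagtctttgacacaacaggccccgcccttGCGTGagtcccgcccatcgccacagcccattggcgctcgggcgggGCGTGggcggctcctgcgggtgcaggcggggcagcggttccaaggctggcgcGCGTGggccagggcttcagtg
The Gpi1 window held 0 matches, the Pfkl window 1 and the Pfkp window 4. All 10 enzymes matched the RefSeq table, with 16 windows because some genes have several starts. ACGTG stood in 6 of the 16 windows, against 19.6% of all 32851 windows in the table, and GCGTG in 8 of 16, against 32.4%. Either stood in 12 of 16 windows, in 8 of the 10 enzymes, against 43.8% of all windows. That share counts windows, not genes. Windows of the same gene can overlap, as some of Aldoa and Eno1 did, and can count the same match again. CACGTG, the letters that Myc binds, which contain ACGTG, stood in 1 of the 16 windows, that of Ldha, against 7.15% of all. The windows of the enzymes had a GC content of 52.7% to 69%, which was not compared with that of all windows. A match is a description of letters only.

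The copies took very different shares of the 10 enzymes' values. A copy was counted where a transcript matched the coding sequence at 95% identity or more over at least 300 bases. For Eno1, 87.1% to 88.2% of the summed value in each library stood in the rows of its copies, chiefly Eno1b (99.4% identity, mean 37816 units) and Gm4735 (99.6%, mean 22595 units). For Pgk1 the copies held 70.7% to 74.7%, chiefly Gm5537 and Pgk1-rs7, each identical to it over the matched bases, so the Eno1 and Pgk1 rows are the minor part of their families and are uncertain. Gpi-ps held 27.05% to 29.7% of the Gpi1 sum, Pgam1-ps2 20.96% to 22.8% of the Pgam1 sum and Gm6560 all of the 9.75% to 10.99% outside the Pkm row. The copies held 1.78% to 3.04% for Ldha and 1.79% to 2.57% for Tpi1, and Pfkl, Pfkp and Aldoa had no copy at this limit. Gapdh, the dehydrogenase between Tpi1 and Pgk1, is no member of the set, and 88.9% to 89.5% of its summed value stood in 71 copies.

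**Figure D1:**
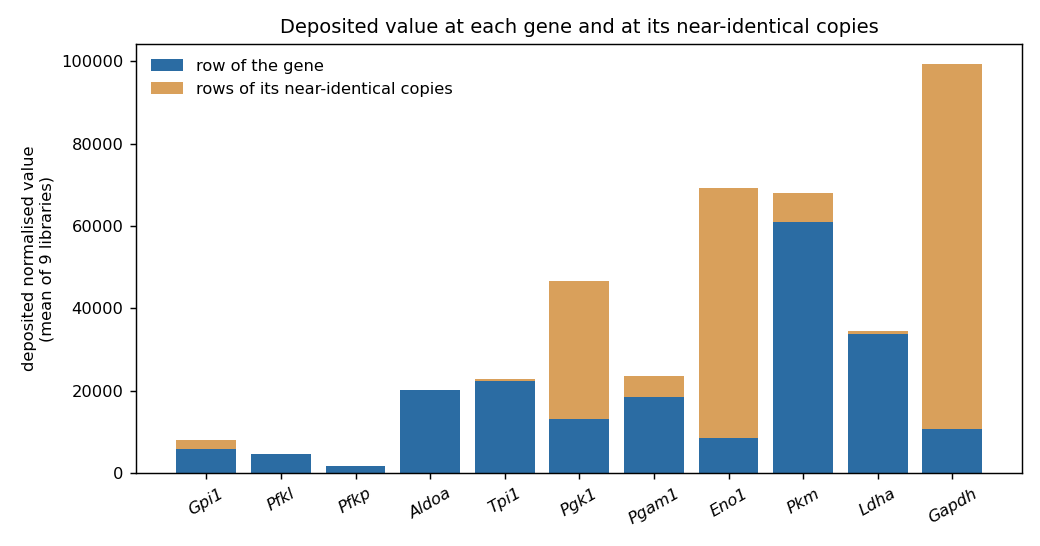
Deposited value in the row of each of the 10 enzymes and of Gapdh, with the rows of near-identical copies stacked on top. Bars are means of the 9 libraries. The copies hold the larger part for Eno1, Pgk1 and Gapdh, and Pfkl, Pfkp and Aldoa have none.

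Levels between enzymes were compared only per length, as the sum with copies per kilobase of the longest transcript, averaged over the 9 libraries. On this scale Eno1 was highest, at 34110.0 units per kb ± 2518 (SD, n = 9), followed by Pkm at 27972 ± 1935 and Pgk1 at 25582 ± 1740.0. Pkm and Pgk1 differed by about their spread over the libraries. Ldha stood at 19008 ± 1649.9 units per kb. Tpi1 at 14235, Pgam1 at 13356 and Aldoa at 13103 did not differ beyond their spread. The enzymes of the first steps were far lower, with Gpi1 at 2807 ± 289, Pfkl at 1219 ± 158 and Pfkp at 407 ± 24.8 units per kb. The summed rows of the 10 enzymes made up 0.634% ± 0.00896 of all deposited values in OA_T0, 0.715% ± 0.0505 in OA and 0.649% ± 0.0219 in MDI (SD, n = 3 each).

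Gpi1 is the enzyme of the first step after hexokinase. Its row held 5474, 5617 and 5353 units in the OA_T0 libraries, 6052, 6052 and 7108 in the OA libraries and 5325, 5544 and 5667 in the MDI libraries. All OA libraries lay above all OA_T0 and all MDI libraries, and OA replicate 3 lay above the other OA libraries. The phosphofructokinase genes differed from each other. Pfkl, the liver-type subunit, had 4279, 4429 and 3824 units in the OA_T0 libraries, 4539.9, 4720.1 and 5914 in the OA libraries and 4130.2, 4327 and 4748 in the MDI libraries. OA lay above OA_T0 without overlap, and OA and MDI overlapped. Pfkp, the platelet-type subunit, had 1666, 1655 and 1755 units in the OA_T0 libraries, 1610.2, 1474 and 1732 in the OA libraries and 1705, 1766 and 1825 in the MDI libraries, the only one of the 10 enzymes whose OA mean was below both other means.

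Among the enzymes that make and convert the 3-carbon intermediates, Aldoa had 19747, 20099.7 and 19084 units in the OA_T0 libraries, 20734, 19759 and 24943 in the OA libraries and 18281, 19254 and 20771 in the MDI libraries, with all 3 groups overlapping. Tpi1 had 22099.5, 23625 and 20618 units in the OA_T0 libraries, 23370.5, 22561 and 27711 in the OA libraries and 18520.0, 20543 and 22356 in the MDI libraries, and its OA libraries all lay above its MDI libraries. Pgk1 had 13442, 13265 and 11062 units in the OA_T0 libraries, 13837, 14077 and 14603 in the OA libraries and 11715, 13355 and 13156 in the MDI libraries, and Pgam1 had 17972, 18439 and 16125 units in the OA_T0 libraries, 19158, 19626 and 22043 in the OA libraries and 16751, 18087 and 18291 in the MDI libraries. In both, the OA libraries lay above those of OA_T0 and of MDI without overlap.

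Of the last enzymes, Eno1 had 8463, 8736 and 7882 units in the OA_T0 libraries, 8748, 8085 and 10166 in the OA libraries and 7839, 8219.6 and 8688 in the MDI libraries, with overlap between all groups. Pkm, the pyruvate kinase gene of most proliferating cells, had 58215, 60429 and 57214 units in the OA_T0 libraries, 61519, 60749 and 71029 in the OA libraries and 56747, 59516 and 64249 in the MDI libraries. Ldha had 33569, 33794 and 30668 units in the OA_T0 libraries, 34539.5, 34239.7 and 40027 in the OA libraries and 29080.5, 32809 and 34641 in the MDI libraries. In Pkm and Ldha the OA libraries lay above those of OA_T0 without overlap and overlapped those of MDI. Within the groups the same libraries stood at the ends: OA replicate 3 was the highest OA library for 10 of 10 enzymes and the highest of all 9 libraries for 9, with Pfkp the exception. MDI replicate 1 was the lowest MDI library for 10 of 10, and OA_T0 replicate 3 the lowest OA_T0 library for 9 of 10.

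**Figure D2:**
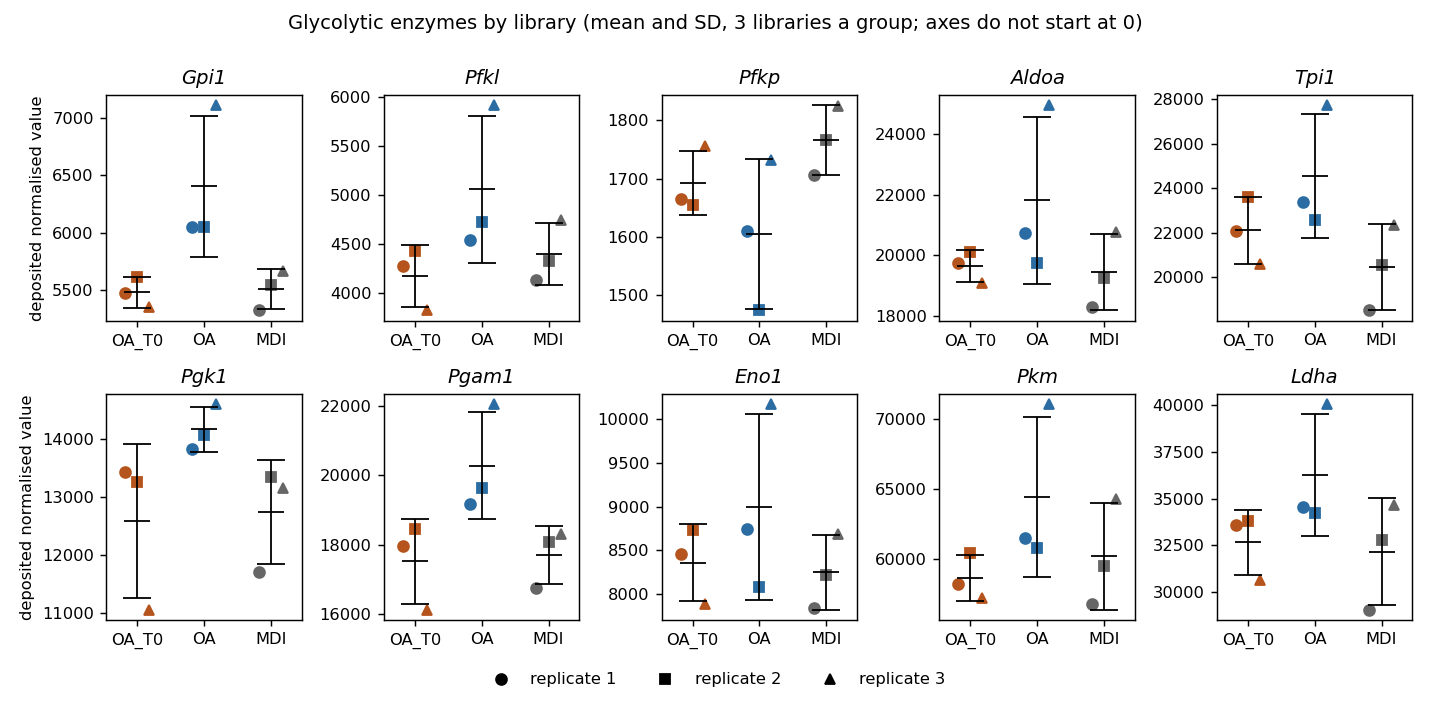
Deposited value of each of the 10 enzymes in each library, with 1 panel per gene, 1 point per library and a line at each group mean, in the order OA_T0, OA, MDI. The value axes do not start at 0. In 9 of the 10 panels OA replicate 3 is the highest point. In the Pfkp panel the OA mean is the lowest, and the groups overlap.

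Oleic acid on albumin was first set against vehicle (OA over MDI), which asks how the enzymes stood after a day with the fatty acid. The OA means of 9 of the 10 enzyme genes were above the MDI means, but 0 of the 10 passed the test as higher and 0 as lower. Among all 15002 tested genes, 3.43% passed as higher and 3.36% as lower (limma, adjusted p below 0.05). At an unadjusted p below 0.05 stood 4 of the 10 enzymes, against 21.2% of all tested genes. Fold changes are given on the log2(value + 1) scale with their SE. They were positive for 9 enzymes and negative for 1, between -0.14 for Pfkp and 0.26 for Tpi1, with a median of 0.17, against 0.014 for all tested genes. Without OA replicate 3 the median was 0.087, against 0.0093 for all tested genes, and without MDI replicate 1 it was 0.11. In 4 enzymes, Gpi1, Tpi1, Pgk1 and Pgam1, all OA libraries lay above all MDI libraries, as they did for 13.4% of all tested genes. In 0 enzymes did they all lie below, against 12.6% of all.

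Gpi1 was nearest to the threshold, with 6404 ± 610.1 units in OA and 5512 ± 173 in MDI (SD, n = 3 each). Its log2 fold change was 0.21 ± 0.065, adjusted p = 0.0637 by limma, with a 95% interval of 0.074 to 0.35. Tpi1 had 24548 ± 2769.7 units in OA and 20473 ± 1919 in MDI, a log2 fold change of 0.26 ± 0.088, adjusted p = 0.0938. The adjusted p-values of the other 8 enzymes lay between 0.130, for Pgam1, and 0.565, for Pkm. With the copies added, the Gpi1 sum was 8606, 8547 and 9965 units in OA and 7389, 7782 and 7915 in MDI, and passed (log2 fold change 0.23, adjusted p = 0.0449). The copy's own row rose, with 2554, 2495 and 2857 units in OA and 2063, 2238 and 2248 in MDI (log2 fold change 0.27 ± 0.066, adjusted p = 0.0223). The Gpi-ps call passed under 15 of 20 alternatives, among them the removal of trends, which left the Gpi-ps values unchanged. Leaving out OA replicate 1 or OA replicate 3 ended it (adjusted p = 0.0524 and 0.0810), as did leaving out the first or the second MDI replicate (adjusted p = 0.101 and 0.0720). No filter on low values ended it too (adjusted p = 0.0723). Gpi1 and Gpi-ps may share reads and are not separate evidence. Without OA replicate 3, Gpi1 was at 0.14 (adjusted p = 0.198) and Tpi1 at 0.17 (adjusted p = 0.295) on the log2 scale.

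Adding T0901317 to oleic acid was set against oleic acid alone (OA_T0 over OA), which asks what the agonist changed. The OA_T0 means of 9 enzyme genes were below the OA means, and 1 of the 10, Gpi1, passed as lower, while 0 passed as higher. Among all tested genes, 6.84% passed as lower and 8.27% as higher. Fold changes were negative for 9 enzymes and positive for Pfkp, at 0.078, and the lowest was -0.27, for Pfkl. Their median was -0.15, against -0.0023 for all tested genes, and 4 of the 10 had an unadjusted p below 0.05, against 29.9% of all. Without OA replicate 3 the median was -0.068, against 0.0041 for all tested genes. In 6 enzymes, Gpi1, Pfkl, Pgk1, Pgam1, Pkm and Ldha, all OA_T0 libraries lay below all OA libraries, as they did for 15.0% of all tested genes, and in 0 they all lay above, against 17.1%. The same OA libraries enter this comparison and that of OA with MDI, with opposite signs, so the 2 sets of values are not independent.

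Gpi1 fell to 5481 ± 132 units in OA_T0, against 6404 ± 610.1 in OA (SD, n = 3 each), a log2 fold change of -0.22 ± 0.065, adjusted p = 0.0329, with a 95% interval of -0.36 to -0.082 (limma). The sum with its copy was 7503, 7797 and 7357 units in OA_T0 and 8606, 8547 and 9965 in OA, at -0.26 on the log2 scale (adjusted p = 0.0149). Gpi-ps alone fell too, with 2029, 2179.5 and 2004 units in OA_T0 and 2554, 2495 and 2857 in OA (log2 fold change -0.35 ± 0.066, adjusted p = 0.00260). Pfkl had 4177 ± 315 units in OA_T0 and 5058 ± 747 in OA and did not pass, at -0.27 ± 0.090, adjusted p = 0.0568. Pgam1 had 17512 ± 1224 units in OA_T0 and 20276 ± 1549 in OA, at -0.21 ± 0.072, adjusted p = 0.0615. Without OA replicate 3, the log2 fold change of Gpi1 was -0.14 and its adjusted p 0.0921, so the call ended, and Pfkl was at -0.15 (adjusted p = 0.183) and Pgam1 at -0.15 (adjusted p = 0.174). The Gpi1 call also ended without OA_T0 replicate 1 (adjusted p = 0.112), without OA_T0 replicate 3 (0.0879) or without MDI replicate 2 (0.0515), whose loss changes only the shared spread and the genes' adjustment. It ended with no filter on low values too (0.0885), and without OA replicate 1 and OA_T0 replicate 3 together (0.101). The call of Gpi-ps in OA_T0 vs OA was kept under all 20 alternatives run for it. The removal of trends, among these 20, left the Gpi-ps values unchanged, because its symbol had no annotated GC content or length. That removal is therefore no check on this call.

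**Figure D3:**
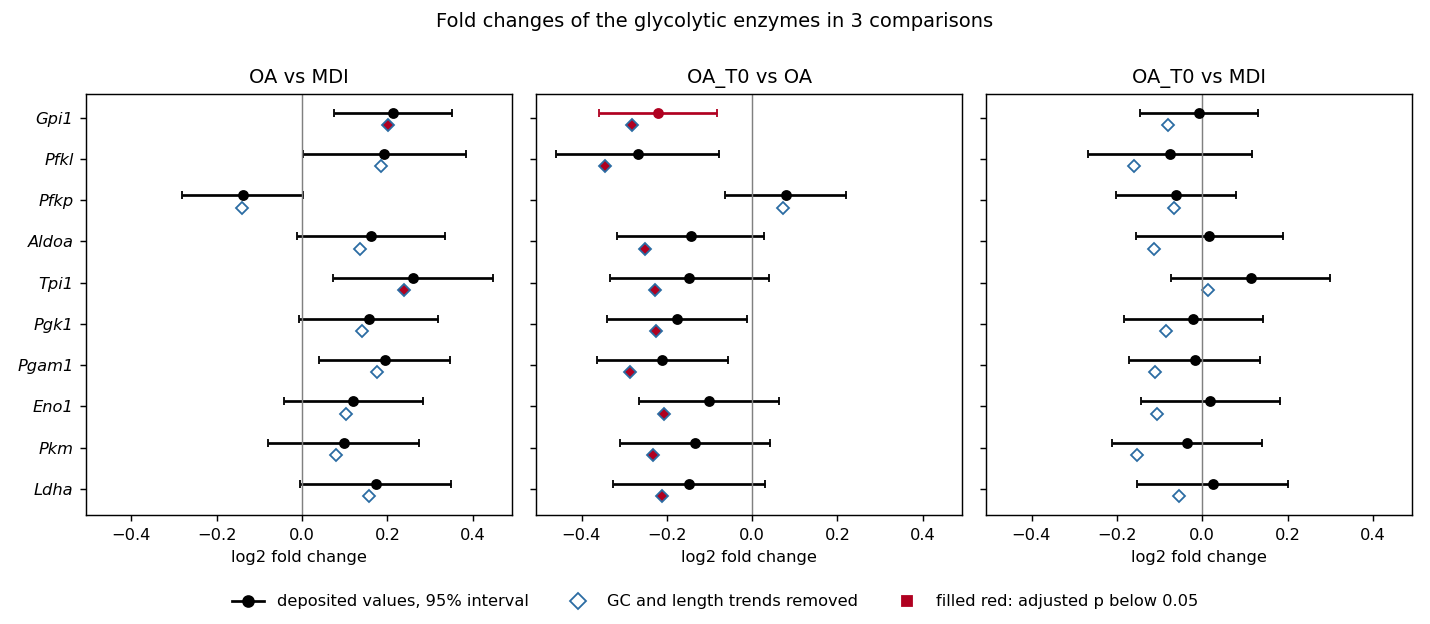
Log2 fold change of each enzyme with its 95% interval in OA vs MDI, OA_T0 vs OA and OA_T0 vs MDI, red where the adjusted p was below 0.05. Diamonds give the value after trends on GC content and transcript length were removed. Before that removal, only Gpi1 in OA_T0 vs OA passed. After it, 9 enzymes passed as lower in OA_T0 vs OA and 2 as higher in OA vs MDI.

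The number of enzymes called in OA_T0 vs OA was larger once trends on base composition and transcript length had been removed. The enzymes had a median GC content of 53.5% and a median transcript length of 1926 bases, against 49.6% and 2778 bases for the tested genes with an annotation. Each library's trend of log2 values on GC content and length, taken at the enzymes, was 0.068, 0.065 and 0.040 in the OA_T0 libraries, -0.036, -0.071 and 0.063 in OA and -0.083, -0.036 and 0.029 in MDI. The enzymes' mean deviation from their own averages was -0.029, 0.0034 and -0.13 in OA_T0, 0.034, 0.0066 and 0.25 in OA and -0.14, -0.036 and 0.035 in MDI. The trend was above 0 in all 3 OA_T0 libraries and below 0 in 2 of the 3 OA libraries, whereas the enzymes were above their averages in all 3 OA libraries. With the trends removed, 9 of the 10 enzymes passed as lower in OA_T0 vs OA, all but Pfkp, against 8.56% of all tested genes. Pfkl was then at -0.34 ± 0.058, adjusted p = 0.00117 and Gpi1 at -0.28 ± 0.042, adjusted p = 5.39e-04, on the log2 scale. Pgam1 had -0.29 (adjusted p = 0.00280), Aldoa -0.25 (adjusted p = 0.00221) and Pgk1 -0.23 (adjusted p = 0.0344). With OA replicate 3 also left out, 6 passed as lower, against 6.37% of all: Aldoa, Eno1, Gpi1, Pfkl, Pgam1 and Pkm. In OA vs MDI, 2 passed as higher with the trends removed, Gpi1 at 0.20 (adjusted p = 0.00851) and Tpi1 at 0.24 (adjusted p = 0.0284), against 5.55% of all. With OA replicate 3 also left out, 1 passed, Gpi1, against 3.07% of all.

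**Figure D4:**
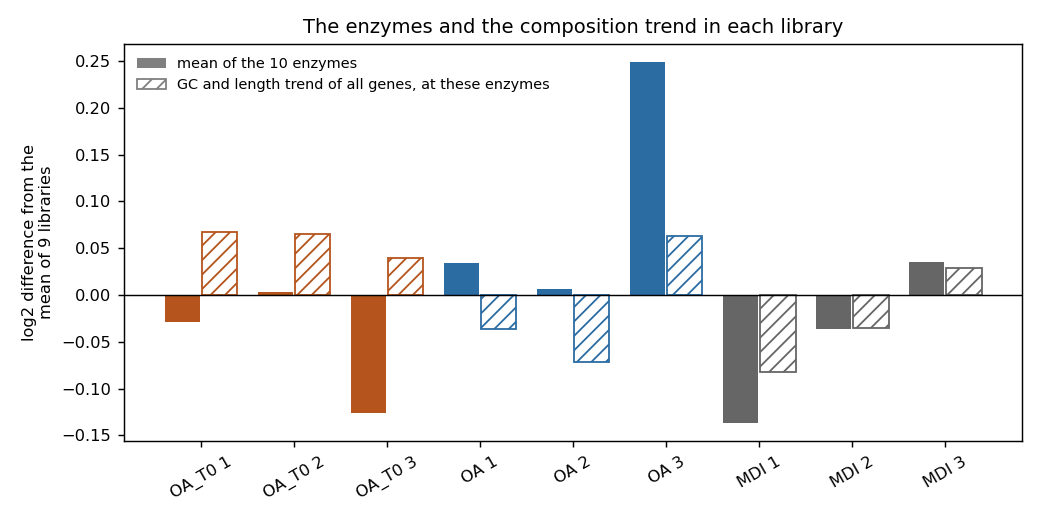
For each library, the mean log2 deviation of the 10 enzymes from their averages over the 9 libraries, beside the trend on GC content and transcript length at those enzymes, in the order OA_T0, OA, MDI. The deviation is 0.25 in OA replicate 3, and the trend is above 0 in the 3 OA_T0 libraries and in OA and MDI replicate 3.

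The combined treatment was also set against vehicle (OA_T0 over MDI). Of the 10 enzymes, 0 passed as higher and 0 as lower by limma, where 1.25% and 1.36% of all tested genes did, and 0 had an unadjusted p below 0.05, against 18.5% of all. Fold changes lay between -0.076, for Pfkl, and 0.11, for Tpi1, and the groups overlapped for all 10, while 13.3% of all tested genes lay above without overlap and 10.2% below. Gpi1 had 5481 ± 132 units in OA_T0 and 5512 ± 173 in MDI (SD, n = 3 each), with a 95% interval of -0.15 to 0.13 for its log2 fold change. The interval was -0.27 to 0.12 for Pfkl, -0.074 to 0.30 for Tpi1 and -0.15 to 0.20 for Ldha, so small changes in either direction were not detectable. With the trends removed, 0 enzymes passed, and the sign turned to negative for Aldoa (-0.11), Eno1 (-0.11) and Ldha (-0.055).

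Among themselves, 9 of the enzymes varied together over the libraries. The Pearson correlation of each with the mean profile of the other 9, over 9 libraries that share scaling and depth, was 0.749 to 0.972 for these and -0.090 for Pfkp. Outside the set, the most alike genes with a mean of at least 50 units included Pxn (r = 0.99), the paxillin gene of focal adhesions, Dock6 (0.98), Rundc1 (0.96), Sardh (0.95), 9130221H12Rik (0.95) and Tnfsf12 (0.95). Gm4735 (0.98) and Eno1b (0.97) completed the 8, and both are copies of Eno1 that may share its reads. These correlations are descriptions with n = 9 libraries and no p.

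The balance of the phosphofructokinase subunits differed between the groups in description. The ratio of the Pfkl to the Pfkp value was 2.57, 2.67 and 2.18 in the OA_T0 libraries, 2.82, 3.20 and 3.42 in OA and 2.42, 2.45 and 2.60 in MDI. All OA ratios lay above all others, with means of 2.47 ± 0.261 in OA_T0, 3.15 ± 0.302 in OA and 2.49 ± 0.0970 in MDI (SD, n = 3 each). The pair was chosen after its values were seen, so no test is given. Per length, Pfkl made up 51.99% to 59.98% of the 3 phosphofructokinase genes, the muscle-type gene Pfkm 23.4% to 27.03% and Pfkp 15.8% to 21.5%. Pfkm had 1638, 1692 and 1507 units in the OA_T0 libraries, 1672, 1636 and 1842 in the OA libraries and 1333, 1473 and 1556 in the MDI libraries. Its log2 fold change was 0.24 (adjusted p = 0.0637) in OA vs MDI and -0.090 (adjusted p = 0.442) in OA_T0 vs OA.

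A list of other isoenzymes of these steps also held Gapdh, which is a step of its own, and Eno1b, a copy of Eno1. Of this list 8 were tested, and 0 passed in OA vs MDI, in OA_T0 vs OA or in OA_T0 vs MDI (limma). At an unadjusted p below 0.05 stood 3, 0 and 0 of them in that order, with Gapdh among the 3. The median log2 fold changes of the 8, Gapdh and Eno1b included, were 0.14 in OA vs MDI, -0.081 in OA_T0 vs OA and 0.13 in OA_T0 vs MDI. Gapdh had 10637, 10379 and 10889.7 units in the OA_T0 libraries, 11016, 10325 and 12273 in the OA libraries and 10084, 9977 and 10202 in the MDI libraries, at 0.15 (adjusted p = 0.191) in OA vs MDI and -0.072 (adjusted p = 0.481) in OA_T0 vs OA. Eno2, the neuronal enolase, was at 0.44 (adjusted p = 0.139) and -0.33 (adjusted p = 0.205) in the same comparisons, and Ldhb, the lactate dehydrogenase subunit of heart, at 0.095 (adjusted p = 0.716) and 0.16 (adjusted p = 0.408). Aldoc averaged under 10 units and was not tested. The 5 genes that set the level of fructose 2,6-bisphosphate, the activator of phosphofructokinase, did not pass in any comparison, with an unadjusted p below 0.05 for 2, 1 and 0 of them in the same order. Pfkfb3, a kinase that makes it, was at -0.24 (adjusted p = 0.142) in OA vs MDI and 0.072 (adjusted p = 0.639) in OA_T0 vs OA. The kinase gene Pfkfb4 was at 0.38 (adjusted p = 0.151) and -0.10 (adjusted p = 0.692), and Tigar, a phosphatase that removes it, at -0.22 (adjusted p = 0.285) and 0.25 (adjusted p = 0.147).

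Of the genes of glucose entry, just above these enzymes, Hk2 and Slc2a1 had their lowest values in OA. Hk2, the insulin-responsive hexokinase, had 1484, 1173 and 1468 units in the OA_T0 libraries, 855, 849 and 843 in the OA libraries and 1486, 1429.6 and 1224 in the MDI libraries, with all OA libraries below all others. It fell in OA vs MDI (log2 fold change -0.70 ± 0.092, adjusted p = 2.82e-04) and rose in OA_T0 vs OA (0.69 ± 0.092, adjusted p = 1.41e-04), and OA_T0 vs MDI gave -0.0081 (adjusted p = 0.973). Slc2a1, the GLUT1 glucose transporter, had 1907, 1897 and 1773 units in the OA_T0 libraries, 1389, 1312 and 1423 in the OA libraries and 1751, 1695 and 1714 in the MDI libraries. It also fell in OA vs MDI (-0.32 ± 0.059, adjusted p = 0.00383) and rose in OA_T0 vs OA (0.44 ± 0.059, adjusted p = 1.60e-04), with 0.11 (adjusted p = 0.327) in OA_T0 vs MDI. Hk1, the hexokinase of most tissues, did not pass, at 0.061 (adjusted p = 0.721) in OA vs MDI and -0.023 (adjusted p = 0.871) in OA_T0 vs OA. Thus 2 of the 3 tested entry genes fell with oleic acid and rose when T0901317 was added. Among all tested genes, 3.36% passed as lower in OA vs MDI and 8.27% as higher in OA_T0 vs OA.

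**Figure D5:**
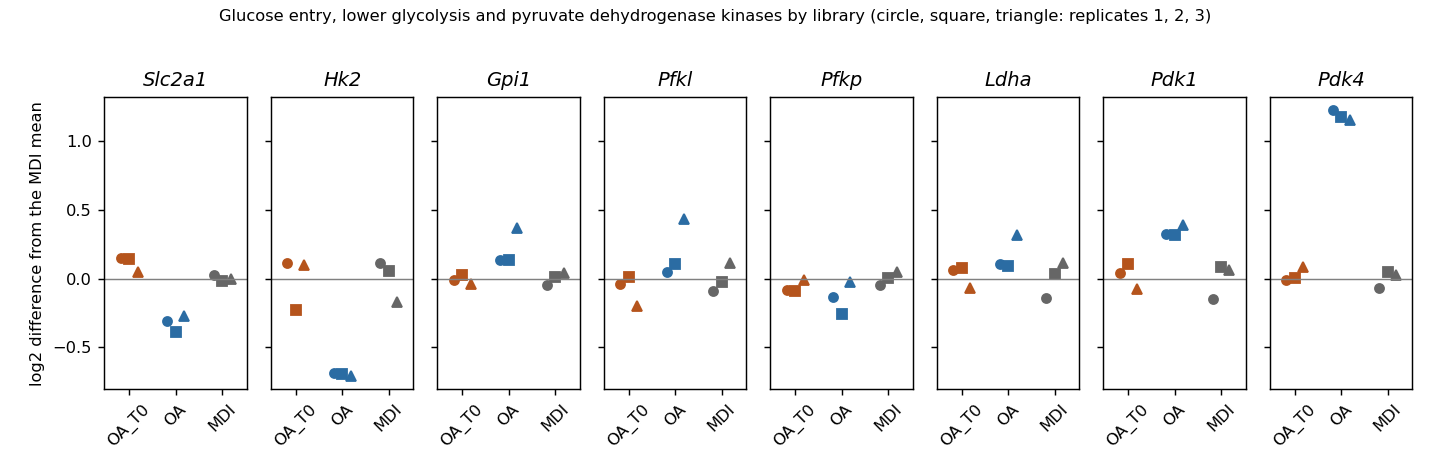
Log2 differences between the groups for genes along the pathway, from glucose entry through enzymes below hexokinase to the fate of pyruvate. Hk2 and Slc2a1 were lower in OA than in MDI and higher in OA_T0 than in OA. Pdk4 and Pdk1 went the other way round.

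At the far end of the pathway, 3 of 15 tested genes of pyruvate and lactate fate rose in OA vs MDI and 1 fell. Among all tested genes, 3.43% passed as higher and 3.36% as lower there, and 8.27% and 6.84% in OA_T0 vs OA. Pdk4 and Pdk1, kinases that shut off pyruvate dehydrogenase, rose by 1.18 (adjusted p = 5.95e-09) and 0.34 (adjusted p = 0.00705) on the log2 scale. Pdk1 had 4059, 4247 and 3752 units in the OA_T0 libraries, 4926, 4913 and 5155 in the OA libraries and 3567, 4172 and 4126 in the MDI libraries, with OA above both other groups without overlap. Bsg, basigin, the partner of lactate transporters, rose at 0.22 (adjusted p = 0.0374), and Pdp2, a phosphatase that turns pyruvate dehydrogenase back on, fell at -0.40 (adjusted p = 0.0293). In OA_T0 vs OA, 2 rose and 2 fell: Pdp2 at 0.64 (adjusted p = 8.22e-04) and Mpc1, of the mitochondrial pyruvate carrier, at 0.38 (adjusted p = 0.0299), against Pdk4 at -1.16 (adjusted p = 4.66e-09) and Pdk1 at -0.32 (adjusted p = 0.00574). The lactate transporter genes did not pass: Slc16a1 was at -0.14 (adjusted p = 0.229) in OA vs MDI and 0.17 (adjusted p = 0.0750) in OA_T0 vs OA, and Slc16a3 at 0.12 (adjusted p = 0.876) and -0.52 (adjusted p = 0.288). In OA_T0 vs MDI, 0 of the 15 passed (limma), and 1 had an unadjusted p below 0.05. The median over the 15 was 0.020 in OA vs MDI, 0.0056 in OA_T0 vs OA and 0.036 in OA_T0 vs MDI.

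Of 19 genes of the branches from glycolysis, 3 rose and 3 fell in OA vs MDI. The shares of all tested genes were 3.43% higher and 3.36% lower there, and 8.27% and 6.84% in OA_T0 vs OA. Akr1b3, the aldose reductase that leads glucose to sorbitol, rose at 0.87 (adjusted p = 3.43e-06), and Pgm1, named as a phosphoglucomutase, at 0.40 (adjusted p = 0.00248). Gfpt1, which opens the hexosamine branch from fructose 6-phosphate, was the third that rose. The genes that fell were Psph, Phgdh and Psat1, the serine synthesis enzymes that draw on 3-phosphoglycerate, at -0.43 (adjusted p = 0.00224), -0.31 (adjusted p = 0.0113) and -0.20 (adjusted p = 0.0423). In OA_T0 vs OA, 5 rose and 2 fell. The serine enzymes rose, Psph at 0.70 (adjusted p = 1.56e-05), Phgdh at 0.50 (adjusted p = 1.31e-04) and Psat1 at 0.41 (adjusted p = 1.83e-04), and so did Rpia and Tkt, of the pentose phosphate branch, with Tkt at 0.27 (adjusted p = 0.0123). Akr1b3 fell at -0.95 (adjusted p = 6.25e-07) and Pgm1 at -0.35 (adjusted p = 0.00349). In OA_T0 vs MDI, Tkt rose, at 0.28 (adjusted p = 0.0325), and 0 of the 19 fell. The median over the 19 was 0.023 in OA vs MDI, 0.084 in OA_T0 vs OA and 0.11 in OA_T0 vs MDI.

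Of 3 tested genes of gluconeogenesis, which runs the pathway backwards from pyruvate, Pcx, pyruvate carboxylase, rose in OA vs MDI at 0.31 (adjusted p = 0.0219) and in OA_T0 vs MDI at 0.29 (adjusted p = 0.0485). Pck2, the mitochondrial PEP carboxykinase, rose in OA_T0 vs OA at 0.52 (adjusted p = 2.70e-05) and in OA_T0 vs MDI at 0.32 (adjusted p = 0.00735). Among 6 tested regulators, Myc had 5949, 5497 and 6043 units in OA_T0, 4123, 4174 and 4253 in OA and 5489, 5445 and 4833 in MDI. It fell in OA vs MDI (-0.33 ± 0.061, adjusted p = 0.00468) and rose in OA_T0 vs OA (0.48 ± 0.061, adjusted p = 1.03e-04). Hif1a did not pass, at 0.017 (adjusted p = 0.901) in OA vs MDI and -0.080 (adjusted p = 0.338) in OA_T0 vs OA. HIF targets outside glycolysis, 17 of them tested, moved both ways, with a median of 0.15 in OA vs MDI, -0.042 in OA_T0 vs OA and -0.011 in OA_T0 vs MDI. In OA vs MDI, 3 rose, with Bnip3, a mitophagy receptor, at 0.35 (adjusted p = 0.0114), P4ha1 at 0.23 (adjusted p = 0.0254) and Plod2, both collagen hydroxylases, at 0.24 (adjusted p = 0.0473). Ero1l, an oxidase of the endoplasmic reticulum, fell at -0.39 (adjusted p = 0.0143) and Vegfa, the angiogenic factor, at -0.35 (adjusted p = 0.0295). In OA_T0 vs OA, 3 rose and 6 fell, among them Ddit4, an inhibitor of mTORC1, at 0.43 (adjusted p = 6.43e-04), Vegfa at 0.55 (adjusted p = 9.47e-04), Bnip3 at -0.51 (adjusted p = 3.52e-04) and Plod2 at -0.42 (adjusted p = 6.92e-04). In OA_T0 vs MDI, Ddit4 rose at 0.30 (adjusted p = 0.0320) and Adm, adrenomedullin, at 0.54 (adjusted p = 0.0476), and 0 fell. Over all 76 tested genes around the 10 enzymes, 10 rose and 9 fell in OA vs MDI, 14 rose and 10 fell in OA_T0 vs OA, and 5 rose and 0 fell in OA_T0 vs MDI. Among all tested genes, 3.43% passed as higher and 3.36% as lower in OA vs MDI, and 8.27% and 6.84% in OA_T0 vs OA. The shares were 1.25% and 1.36% in OA_T0 vs MDI. These shares also belong beside the counts of each list above. The lists were chosen with earlier results of these data known.

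The calls on genes around the enzymes were not equally stable. In OA vs MDI, those of Hk2, Slc2a1, Myc, Akr1b3, Pdk1, Pdk4, Pgm1 and Psph were kept under all 20 alternatives run for them. The other 10 calls on these lists given with values in that comparison, on Bnip3, Bsg, Ero1l, P4ha1, Pcx, Pdp2, Phgdh, Plod2, Psat1 and Vegfa, were each lost without at least 1 library and passed under 9 to 18 of the 20, with highest adjusted p-values of 0.0591 to 0.176 (limma). In OA_T0 vs OA, 17 such calls were kept under all 20, and those of Mpc1, Pdk1 and Tkt were not. Gfpt1 and Rpia, named without values, were not followed through the alternatives. In OA_T0 vs MDI, the calls of Adm, Ddit4, Pck2, Pcx and Tkt passed under 8 to 18 of the 20.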

How the data were processed

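The deposited table held a signal per gene symbol: non-whole counts that the authors had scaled by a factor for each library. Per the submitters' processing notes, CASAVA 1.8.2, TopHat, HTSeq, DESeq2 and the build mm9 were used, with no role for each. How reads that fit several genes were counted is not given in the sources used here. Between 5 and 50 steps of 1 fragment, 63.1% to 68.9% of values were whole multiples within 0.05, so whole reads were not recovered and count tests were not used. Estimated depth was 17.98 to 59.9 M fragments, and floors cover counting error only.

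Genes averaging 10 or more over the 9 libraries were tested on log2(value + 1), which understates changes of low genes, with limma 3.58.1 in R 4.3.3. The fit used an intensity trend and all 3 groups together for each gene's spread. P-values were two-sided and adjusted over all 15002 genes (Benjamini-Hochberg) within each comparison, with a threshold of 0.05. The procedure was tested on simulated data. Copies were found with blastn 2.17.0 in GENCODE M21 transcripts. GC content and length came from the same annotation, for 97.9% of tested genes, and promoter windows from RefSeq. Genes without them kept their values when trends were removed.

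The 10 enzymes and the lists were chosen with earlier results of these data known. Of 147 symbols on the lists, 137 were found and 10 were not analysed here. Named were all 10 enzymes, fixed neighbours, up to 4 passing genes per list and comparison, and the 8 genes most like the enzymes. Genes outside this rule carry no values. The alternatives changed the pseudocount (0.5 or 5), the filter (none, or a mean of 50), the scaling (quantiles or equal totals), the libraries in the fit, the variance estimate (robust), the replicate number (as a block), and the trends on GC content and length (removed). Sums with copies, and trends removed together with OA replicate 3 left out, were chosen after seeing the data.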

Additional observations from a re-analysis of the deposited data

How the results depend on the processing

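Gpi1 was lower in OA_T0 than in OA under all 22 alternatives, with log2 fold changes of -0.28 to -0.14, and passed under 16 of them, with adjusted p-values of 5.39e-04 to 0.112 (limma). Filters, robust variance, the replicate block, fitting only the groups compared and leaving out an MDI library cannot alter this fold change. Its sign under those settings was fixed in advance. No fold change that changed sign under an alternative had passed the test in the fit reported above. The cause of each change was not tested. Over all results, 2511 of 2750 alternative fold changes of single genes kept their sign and their side of the threshold, 122 no longer passed, 51 newly passed and 66 changed sign. All 10 enzymes lay far above the floor of 3 fragments, and the rows of Eno1 and Pgk1 are limited most by their copies. With the trends on GC content and length removed, the calls were 2 enzymes called higher in OA vs MDI (against 5.55% of all genes tested), 9 enzymes called lower in OA_T0 vs OA (against 8.56% of all genes tested), 16 other pathway genes called higher in OA vs MDI, 17 other pathway genes called lower in OA_T0 vs OA. The log2 values with a changed sign were, in OA_T0 vs MDI -0.11 for Aldoa, -0.097 for Bsg, -0.11 for Eno1, -0.054 for Gapdh, 0.024 for Hif1a, -0.030 for Hk1, -0.055 for Ldha and in OA_T0 vs OA 0.021 for Hif1a. With these trends removed and OA replicate 3 left out, the calls were 1 enzyme called higher in OA vs MDI (against 3.07% of all genes tested), 6 enzymes called lower in OA_T0 vs OA (against 6.37% of all genes tested). With equal totals, the calls were 1 enzyme called higher in OA vs MDI (against 3.35% of all genes tested), 4 enzymes called lower in OA_T0 vs OA (against 7.87% of all genes tested), 2 other pathway genes called higher in OA_T0 vs MDI (against 0.953% of all genes tested). The log2 values with a changed sign were, in OA_T0 vs MDI -0.018 for Aldoa, -0.015 for Eno1, -0.010 for Ldha, -0.0097 for Pdk1, -0.0094 for Pdk4, -0.0021 for Tigar and in OA vs MDI -0.0027 for Tkt. With no filter on low values, the calls were 0 enzymes called lower in OA_T0 vs OA (against 2.29% of all genes tested), 4 other pathway genes called higher in OA vs MDI (against 0.862%), 4 other pathway genes called lower in OA vs MDI (against 0.865%), 1 other pathway gene called higher in OA_T0 vs MDI (against 0.266%). With quantile normalisation, the calls were 3 enzymes called lower in OA_T0 vs OA (against 8.05% of all genes tested). The log2 values with a changed sign were, in OA_T0 vs MDI -0.032 for Aldoa, -0.0020 for Bsg, -0.059 for Ldha, 0.0011 for Pfkl over Pfkp and in OA vs MDI -0.018 for Hif1a, -0.0015 for Tkt. With robust variance estimates, the calls were 2 enzymes called lower in OA_T0 vs OA (against 7.05% of all genes tested). With enzymes summed with their copies, the calls were 1 enzyme called higher in OA vs MDI (against 3.45% of all genes tested). The log2 values with a changed sign were, in OA_T0 vs MDI -0.015 for Eno1, 0.028 for Pgk1. With OA replicate 1 and OA_T0 replicate 3 both left out, the calls were 0 enzymes called lower in OA_T0 vs OA (against 2.68% of all genes tested), 6 other pathway genes called higher in OA vs MDI (against 2.56%), 3 other pathway genes called higher in OA_T0 vs MDI (against 1.1%). The log2 values with a changed sign were, in OA_T0 vs MDI 0.0091 for Gpi1, -0.0034 for Pdk4, 0.041 for Pgam1, 0.070 for Pgk1, 0.074 for Pfkl over Pfkp and in OA vs MDI -0.0076 for Hif1a and in OA_T0 vs OA 0.059 for Pfkfb4. Leaving out each library in turn gave 0 to 1 enzymes called higher in OA vs MDI (against 1.41% to 4.39% of all genes tested), 0 to 3 enzymes called lower in OA_T0 vs OA (against 3.16% to 8.26% of all genes tested), 4 to 15 other pathway genes called higher in OA vs MDI, 5 to 9 other pathway genes called lower in OA vs MDI (against 1.03% to 4.26%), 0 to 5 other pathway genes called higher in OA_T0 vs MDI (against 0.44% to 1.89%). Log2 fold changes that crossed 0 when a library was left out ran in OA_T0 vs MDI -0.026 to 0.066 for Aldoa, -0.017 to 0.061 for Eno1, -0.043 to 0.28 for Eno2, -0.033 to 0.012 for Gpi1, -0.032 to 0.10 for Hk1, -0.092 to 0.10 for Hk2, -0.046 to 0.080 for Ldha, -0.048 to 0.074 for Pdk1, -0.0091 to 0.047 for Pdk4, -0.057 to 0.041 for Pgam1, -0.080 to 0.070 for Pgk1, -0.077 to 0.012 for Pkm, -0.030 to 0.12 for Tigar, -0.074 to 0.074 for Pfkl over Pfkp; in OA vs MDI -0.0076 to 0.055 for Hif1a, -0.014 to 0.13 for Hk1, -0.044 to 0.19 for Ldhb, -0.085 to 0.37 for Slc16a3, -0.059 to 0.054 for Tkt; in OA_T0 vs OA -0.082 to 0.051 for Hk1, -0.076 to 0.056 for Pcx, -0.23 to 0.021 for Pfkfb4. With the replicate block, the counts of calls over all tested genes were 433 higher and 417 lower in OA vs MDI, 1095 higher and 916 lower in OA_T0 vs OA and 156 higher and 183 lower in OA_T0 vs MDI, and the counts of enzymes called were the same as without it. The labels do not say whether equal replicate numbers mark paired libraries. Deviations of libraries with the same number from their group means correlated at -0.26 to 0.26. With 3 libraries a group, these values cannot decide whether libraries were paired.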
